A study of Sus scrofa with 6 samples.

Results

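The genes described here are ZP2, ZP3 and ZP4, which encode the zona pellucida glycoproteins of the pig. They were chosen by name and matched by NCBI gene ID (396846, 396927 and 397111), and are 3 of the 19300 genes listed in any of the 6 oocytes. Each library was made from a single pig oocyte at the germinal vesicle stage, before meiosis resumes and without maturation culture. The groups were 3 BCB-negative and 3 BCB-positive oocytes, and both came from antral follicles of 3 to 6 mm with at least 3 layers of cumulus cells around the oocyte. In both groups hyaluronidase (0.1%) and vortexing removed the cumulus cells, and pronase (0.5%) removed the zona itself before lysis. The dye brilliant cresyl blue (BCB) is one that growing oocytes tend to reduce to a colourless form, so oocytes that stay blue, called BCB-positive, are generally taken as fully grown.

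The zona pellucida is the extracellular glycoprotein coat that an oocyte secretes around itself while it grows. Its proteins share a ZP module through which they polymerise into filaments. In the pig the coat is built of ZP2, ZP3 and ZP4. ZP3 and ZP4 form complexes that bind sperm, and ZP2 is the protein that is cut after fertilisation in the block to further sperm. The protein coat was stripped before lysis, so these libraries measured the messenger RNA inside the oocyte and not the zona.

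No label ties an oocyte to an animal or a culture. Each class therefore stood as 1 sample made of 3 cells, and the classes are compared without a test. Total expected counts, which are estimates that divide reads among transcripts, ranged from 7122749 to 9238987 per oocyte. BCB-positive oocyte 3 stood apart, with a mean Pearson correlation with the other oocytes of 0.874 against 0.905 to 0.915 for the rest, across the 11493 genes that averaged 1 FPKM or more. FPKM is the number of fragments per unit of transcript length and of sequencing depth, a scaling meant for comparing genes of different length. Whether that scaling holds in these libraries, whose cDNA was primed with poly(dT), was not tested. The oocyte label was checked with 10 markers such as GDF9, BMP15 and MOS, all of which were found in the series. Their summed levels were 14522 to 17486 FPKM in the BCB-negative and 8040 to 15730 FPKM in the BCB-positive class. KPNA7 was the most abundant of them, at a mean of 8246 FPKM. NLRP5 and DAZL were low, with NLRP5 at 0 to 2.11 FPKM and DAZL at 1.29 to 4.79 FPKM. Of 22 cumulus and granulosa markers, 9 were found in no oocyte, among them FSHR, LHCGR, FOXL2, KRT8 and KRT18. Of these 9, HAS2 had no entry in the name table that matched symbols to gene IDs, so it could not have been found. The aromatase gene CYP19A1 reached at most 0.18 FPKM. The summed level of these markers was 24.4 to 33.5 FPKM in the BCB-negative and 32.7 to 41.4 FPKM in the BCB-positive class, mostly from INHBA. Of the 3 that averaged 1 FPKM or more, 1 was higher in every BCB-positive oocyte and 0 were lower. Of all 11493 genes 7.44% and 4.03% were. That marker was HSD17B1, at 0.15 to 1.31 against 1.64 to 2.25 FPKM. STAR, with a lower mean, was at 0.05 to 0.37 against 0.40 to 1.79 FPKM. SERPINE2 reached 4.35 FPKM, with overlapping classes. Markers of theca and stroma summed to 27.6 to 59.8 and 28.8 to 43.0 FPKM, of endothelium to 6.94 to 15.6 and 8.77 to 23.0 FPKM, and of leukocytes to 3.98 to 8.03 and 5.18 to 10.6 FPKM. Most of the theca and stroma sum came from TAGLN, and most of the endothelium sum from TEK. Of the 3 leukocyte markers that averaged 1 FPKM or more, 1 was higher in every BCB-positive oocyte and 0 were lower, beside the same 7.44% and 4.03%. It was CD3E, at 0.11 to 1.19 against 2.37 to 4.60 FPKM. No red cell marker was found, but 1 of the 5, HBA, had no entry in the name table.

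All of the zona genes were among the most abundant in every oocyte, in the order ZP3, ZP4, ZP2 by FPKM, and none separated the BCB classes. ZP3 differed most between oocytes, and its range crossed the classes. ZP4 differed least. Together the genes took between 1.88% and 3.60% of an oocyte's counts.

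ZP3, part of the sperm-binding complex, was at 18993, 8266 and 14441 FPKM in the BCB-negative class 1, 2 and 3. It was at 14619, 6632 and 5602 FPKM in the BCB-positive class 1, 2 and 3. The classes overlapped, since BCB-positive oocyte 1 lay above BCB-negative oocytes 2 and 3, and BCB-negative oocyte 2 lay well below BCB-positive oocyte 1. Means were 13900.3 ± 5384 FPKM (SD, n = 3 oocytes) in BCB-negative and 8951 ± 4936 FPKM (SD, n = 3 oocytes) in BCB-positive oocytes. On the log2(FPKM + 1) scale the BCB-positive mean was lower by -0.69, about the size of the pooled within-class SD, 0.68. Leaving out BCB-positive oocyte 3 gave -0.42, as did leaving out BCB-negative oocyte 1. Leaving out BCB-negative oocyte 2 gave -1.02, and leaving out BCB-positive oocyte 1 gave -1.11 with classes that no longer overlapped. The highest oocyte had 3.39 times the FPKM of the lowest.

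ZP4, which pairs with ZP3 in the sperm-binding complex, was at 5569, 4785 and 5895 FPKM in the BCB-negative class. It was at 6518, 5395 and 4118 FPKM in the BCB-positive class. The highest and the lowest value were both in BCB-positive oocytes, so the BCB-negative range lay inside the BCB-positive one. Means were 5416 ± 571 and 5344 ± 1201 FPKM (SD, n = 3 oocytes each), and the highest oocyte had 1.58 times the lowest. The log2 difference was -0.04, with a pooled SD of 0.26. Its sign turned to 0.06 when FPKM was rescaled to a common sum, to 0.14 without BCB-positive oocyte 3 and to 0.02 without BCB-negative oocyte 3.

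ZP2, the substrate of the cortical granule protease ovastacin, was at 1453, 1419.7 and 1571 FPKM in the BCB-negative class. It was at 1523, 1141 and 2255 FPKM in the BCB-positive class. The BCB-negative oocytes were close together, while BCB-positive oocytes 2 and 3 held the lowest and the highest value. Means were 1481 ± 79.2 and 1639.8 ± 566 FPKM (SD, n = 3 oocytes each). The log2 difference was 0.09, with a pooled SD of 0.35, and turned to -0.17 without BCB-positive oocyte 3 and to -0.01 under size factor scaling. In the reference annotation ZP2 overlaps TMEM159, which held 1 to 11 counts per oocyte against 20179 to 45407 for ZP2. Counts assigned to TMEM159 were at most 0.0376% of the counts of both genes. Counts of TMEM159 assigned to ZP2, if any, cannot be seen in these values. ZP3 and ZP4 overlap no gene there, and no other gene had values identical to those of a zona gene.

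**Figure D1:**
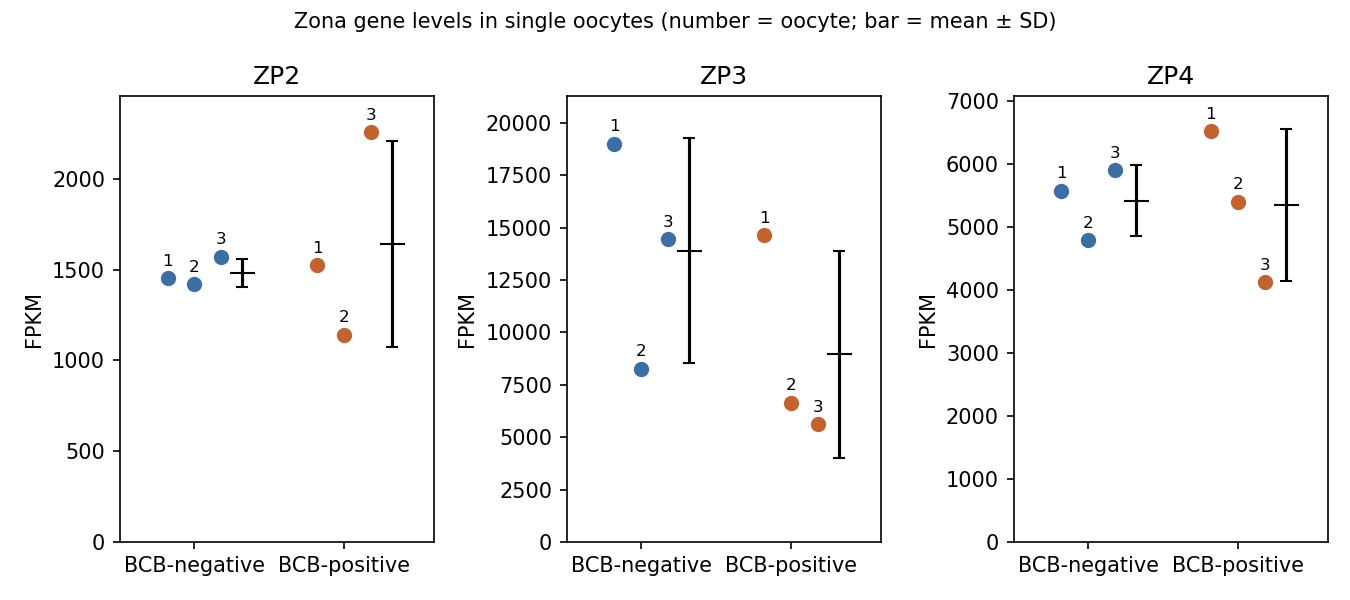
FPKM of ZP2, ZP3 and ZP4 (vertical axes from 0, one scale per gene) in 3 BCB-negative (blue) and 3 BCB-positive (orange) oocytes, with the oocyte number beside each point and the class mean ± SD as a black bar. For each gene the classes overlap, and ZP3 spans the widest range, from 5602 to 18993 FPKM.

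The Poisson intervals of the summed read counts were narrow beside the spread between oocytes. ZP3 held 391307 counts in the 3 BCB-negative oocytes (95% exact Poisson interval 390082 to 392535) and 278886 in the BCB-positive oocytes (277852 to 279923). ZP4 held 197636 (196766 to 198509) and 218133 (217219 to 219050) counts, and ZP2 71762 (71238 to 72289) and 91485 (90893 to 92080) counts. These intervals cover the counting error of independent reads only. PCR reads without molecular identifiers are not independent molecules, so the intervals can understate the error from sampling molecules.

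The count of genes whose classes do not overlap gives the background for these comparisons. Of 11493 genes, 11.5% had all oocytes of a class above all of the other, 7.44% with BCB-positive oocytes higher and 4.03% with BCB-positive oocytes lower. With a difference of at least 2-fold as well, 3.98% of genes met the rule, 329 (2.86%) higher and 128 (1.11%) lower in BCB-positive oocytes, and with at least 1.5-fold 8.41% did. Of the zona genes, 0 of 3 met it at any size. The median log2 difference was -0.04 over the zona genes, 0.11 over all genes compared and -0.29 over the 103 genes that averaged 1000 FPKM or more, a set that includes the zona genes.

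**Figure D2:**
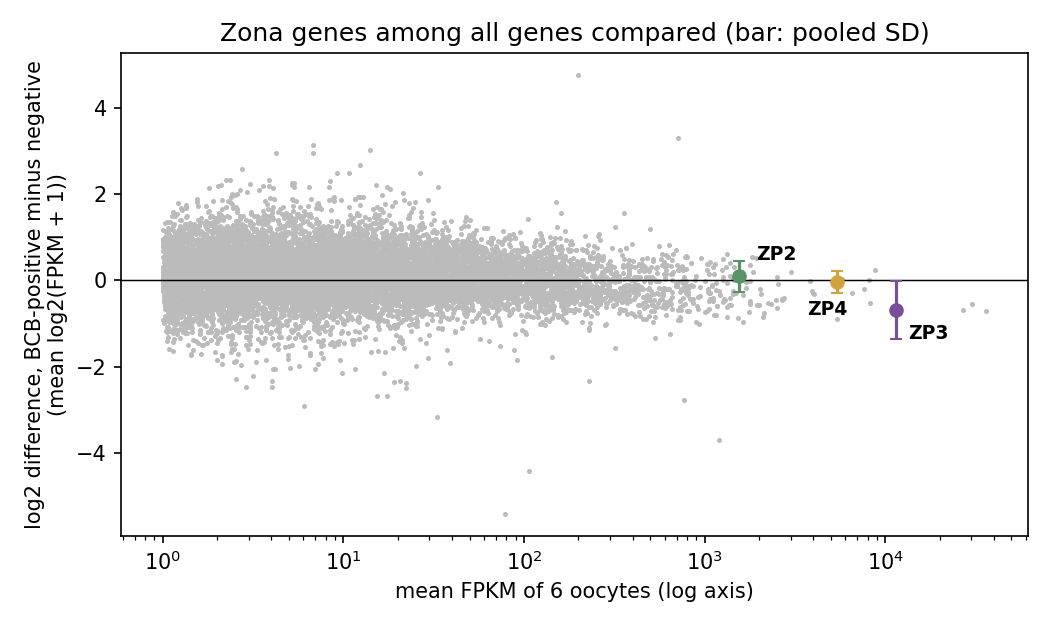
Log2 difference of BCB-positive minus BCB-negative oocytes (vertical axis, mean log2(FPKM + 1)) against the mean FPKM of 6 oocytes (horizontal log axis) for 11493 genes (grey), with ZP2, ZP3 and ZP4 coloured and bars of 1 pooled SD. ZP2 and ZP4 lie near 0 at 0.09 and -0.04, and the bar of ZP3 at -0.69 nearly reaches 0.

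By rank, ZP3 was the 4th, 7th and 4th most abundant gene in BCB-negative and the 4th, 9th and 6th in BCB-positive oocytes by FPKM. The genes above it in every oocyte were DNAJC15, a mitochondrial co-chaperone, FTL, the ferritin light chain, and DYNLL1, a dynein light chain. ZP4 ranked 10th, 14th and 12th in BCB-negative and 10th, 13th and 10th in BCB-positive oocytes. By mean FPKM its nearest neighbours were ACCSL at 5549 FPKM and RPLP1, a ribosomal stalk protein, at 5377 FPKM, beside ZP4 at 5380.0 FPKM. ZP2 ranked 60th, 66th and 54th in BCB-negative and 50th, 99th and 22nd in BCB-positive oocytes, and stood among ribosomal protein genes such as RPS7, at a mean of 1523 FPKM. Even at its lowest rank, only 0.675% of the genes listed in that oocyte lay above ZP2.

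**Figure D3:**
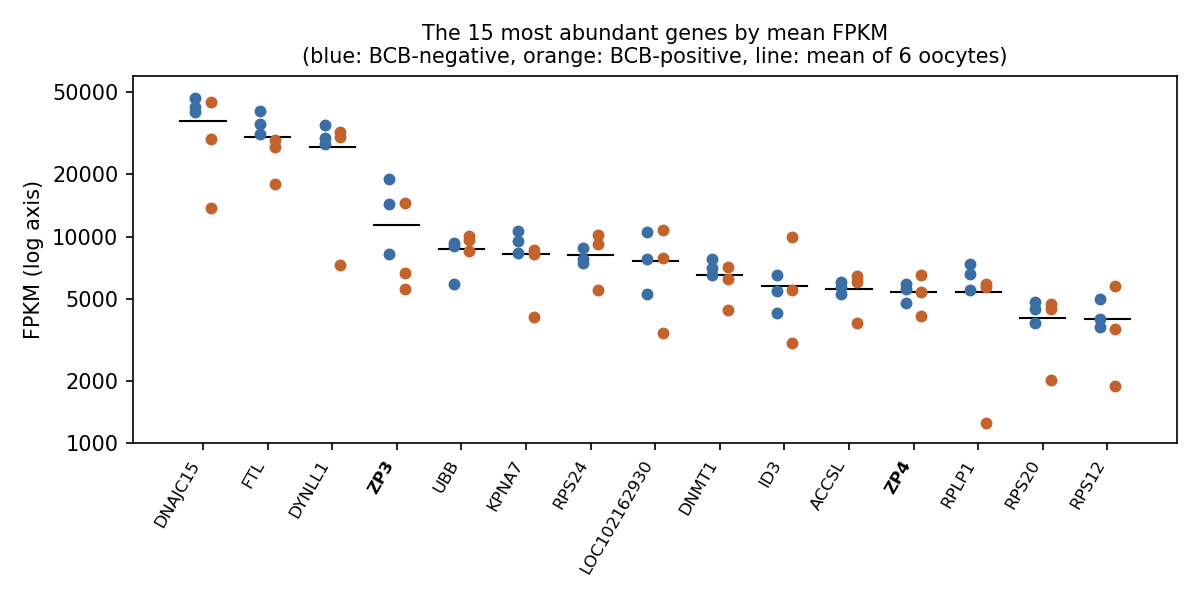
FPKM (vertical log axis) of the 15 most abundant genes by mean in 3 BCB-negative (blue) and 3 BCB-positive (orange) oocytes, with the mean of 6 oocytes as a line. ZP3 is in place 4 and ZP4 in place 12, and the points of ZP4 lie closer together than those of ZP3.

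The spread over the 6 oocytes set the zona genes apart from each other. The SD of log2(FPKM + 1) was 0.71 for ZP3, 0.32 for ZP2 and 0.23 for ZP4, and the median over the 103 abundant genes was 0.48. Of those 103 genes, 17 had a larger SD than ZP3, 76 a larger SD than ZP2 and 92 a larger SD than ZP4. Within the BCB-negative class, the coefficient of variation was 38.7% for ZP3, 10.5% for ZP4 and 5.35% for ZP2. Within the BCB-positive class it was 55.1%, 22.5% and 34.5%.

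In BCB-positive oocyte 3, the library that stood apart, ZP2 went the other way from most abundant genes. Of the 103 abundant genes, 72 (69.9%) had their lowest value of all oocytes there and 16 (15.5%) their highest. Over all 11493 genes these shares were 18.4% and 32.6%. ZP3 and ZP4 were among the 72 and ZP2 among the 16. Against the mean of the other oocytes, ZP3 was lower by -1.06 on the log2 scale there, ZP4 by -0.44 and the median abundant gene by -0.84, while ZP2 was higher by 0.67. Over all 11493 genes the median was 0.18. Whether the make-up of this library bears on the zona genes was not tested.

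The balance of the zona genes within an oocyte, in which depth and library scale cancel, also overlapped between the classes. Library effects that depend on transcript length do not cancel in it, and their bearing on these shares was not tested. ZP3 made up 73.0%, 57.1% and 65.9% of the summed zona FPKM in the BCB-negative and 64.5%, 50.4% and 46.8% in BCB-positive oocytes. ZP4 made up 21.4%, 33.1% and 26.9% in BCB-negative and 28.8%, 41.0% and 34.4% in BCB-positive oocytes. ZP2 made up 5.59%, 9.81% and 7.17% in BCB-negative and 6.72%, 8.66% and 18.8% in BCB-positive oocytes. ZP3 was thus the largest part in each oocyte per length, and ZP2 the smallest. The mean share of ZP3 was lower in BCB-positive oocytes by -11.5 percentage points (pooled SD 8.70), that of ZP4 was higher by 7.58 (pooled SD 5.97) and that of ZP2 by 3.88 (pooled SD 4.84). The share of ZP2 differed by 0.171 percentage points without BCB-positive oocyte 3 and by 6.23 without BCB-positive oocyte 1. With each oocyte left out in turn, the difference ran from 4.45 (without BCB-positive oocyte 2) to 10.6 (without BCB-positive oocyte 1) for ZP4, with 4.72 when BCB-negative oocyte 1 was left out. For ZP3 it ran from -16.8 (without BCB-positive oocyte 1) to -7.64 (without BCB-negative oocyte 1).

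As ratios of FPKM, ZP3 stood at 13.1, 5.82 and 9.19 times ZP2 in BCB-negative and at 9.60, 5.81 and 2.48 times ZP2 in BCB-positive oocytes. ZP3 stood at 3.41, 1.73 and 2.45 times ZP4 in BCB-negative and at 2.24, 1.23 and 1.36 times ZP4 in BCB-positive oocytes. The ratio of ZP4 to ZP2 was 3.83, 3.37 and 3.75 in BCB-negative oocytes, a narrow range. It was 4.28, 4.73 and 1.83 in BCB-positive oocytes, above that range in oocytes 1 and 2 and below it in oocyte 3. By counts, which grow with transcript length, ZP3 also exceeded ZP4, and ZP4 exceeded ZP2, in 5 of 6 oocytes. The exception was BCB-positive oocyte 2, with 71874 counts for ZP4 and 68074 for ZP3.

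The summed zona level was 26015, 14471 and 21907 FPKM in the BCB-negative and 22661, 13168 and 11975 FPKM in the BCB-positive class. It followed ZP3, with BCB-negative oocyte 2 among the low values and BCB-positive oocyte 1 among the high ones. As a share of all counts the zona genes held 3.60%, 2.13% and 3.13% in BCB-negative and 3.25%, 1.95% and 1.88% in BCB-positive oocytes. The log2 difference of the sum was -0.40, with a pooled SD of 0.47, and was -0.23 when BCB-positive oocyte 3 was left out and -0.22 when BCB-negative oocyte 1 was. It was -0.64 with BCB-negative oocyte 2 left out, and -0.69 with BCB-positive oocyte 1 left out, where the classes no longer overlapped.

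**Figure D4:**
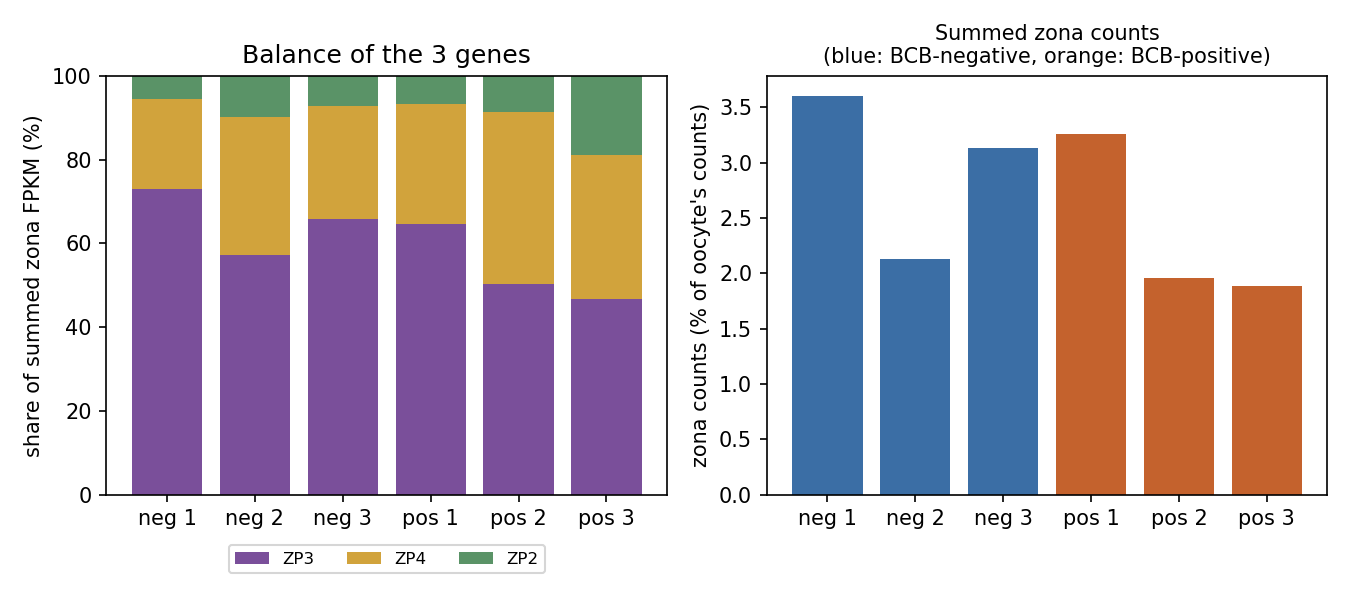
Left, shares of ZP3, ZP4 and ZP2 in their summed FPKM (percent) for each oocyte (neg, BCB-negative; pos, BCB-positive). Right, summed zona counts as a percent of all counts of the oocyte. ZP2 has its largest share, 18.8%, in BCB-positive oocyte 3, and the right panel runs from 1.88% to 3.60% with both classes spread over the range.

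Each zona gene had a single transcript in the isoform tables, NM_213848.2 for ZP2, NM_213893.1 for ZP3 and NM_214045.1 for ZP4, of 2232, 1326 and 1699 bases. The transcript rows held the same counts and FPKM as the gene rows, so these tables show no isoform choice. The lengths that the FPKM values imply were 52.8 to 73.1 bases shorter than those listed, so the choice between listed and implied length matters slightly more for ZP3 than for the longer ZP2.

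The patterns of other genes across the 6 oocytes were set beside those of the zona genes. Of 4327 named genes averaging 10 FPKM or more, 15, 6 and 8 had a Pearson r of at least 0.95 with ZP2, ZP3 and ZP4. How many unrelated genes would reach such an r over 6 oocytes was not tested. With the mean log2 level of the zona genes, which moves mostly with ZP3, 8 of the 4327 genes reached 0.95. The closest were DPH3, of diphthamide synthesis (r = 0.996), GPR160, an orphan receptor (0.970), EZR, the actin-membrane linker ezrin (0.965), AGTRAP, which binds the angiotensin receptor (0.960), and JCHAIN (0.954). AGTRAP was also closest to ZP3 alone (r = 0.977), at 310, 218 and 298 FPKM in the BCB-negative and 318, 178 and 164 FPKM in the BCB-positive class, followed by CMBL (0.968) and YDJC (0.966). ZP2 was matched most closely by the small GTPase RAC1 (0.987), the co-chaperone DNAJA2 (0.981) and the kinase DYRK1A (0.978), each highest in BCB-positive oocyte 3. ZP4 was matched by XPO5, which exports microRNA precursors from the nucleus (0.969), MYCBP (0.968) and AKR7A2 (0.967). With 6 oocytes that share their libraries between genes, these values are descriptions. Among the zona genes themselves, r was 0.77 for ZP3 with ZP4, -0.21 for ZP2 with ZP3 and -0.54 for ZP2 with ZP4. Without BCB-positive oocyte 3, r over the other 5 oocytes was 0.59 for ZP3 with ZP4, 0.78 for ZP2 with ZP3 and 0.42 for ZP2 with ZP4, so the negative values rest on that oocyte.

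Transcription of zona genes is driven in growing oocytes by FIGLA, which binds E-boxes as a partner of E proteins such as TCF3 and TCF12. Of 14 listed regulators and partners, 12 were in the files and 8 were compared, and 0 had classes that did not overlap, where 11.5% of all genes did. Their median log2 difference was 0.07, and it was -0.19 when BCB-positive oocyte 2 was left out and -0.07 when BCB-negative oocyte 1 was. FIGLA was at 178, 241 and 253 FPKM in the BCB-negative and at 212, 201 and 53.8 FPKM in the BCB-positive class, with a single low value in BCB-positive oocyte 3. LHX8, a homeobox factor of oocyte differentiation, ran from 34.9 to 77.5 FPKM. The most abundant member was ID3, an inhibitor that sequesters E proteins, at 4252, 5475 and 6532 FPKM in the BCB-negative and 5495, 9948 and 3054 FPKM in the BCB-positive class. NOBOX, an oocyte homeobox factor named after its values were seen, reached at most 0.83 FPKM.

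Zona proteins enter the secretory pathway through a signal peptide and are released from their membrane anchor by cleavage at a convertase site. Of 13 signal peptidase and convertase genes the files held 12, of which 10 were compared. At least 1.5-fold apart with no overlap, 1 was higher and 1 lower in BCB-positive oocytes, where 5.75% and 2.66% of all genes met the rule. SPCS2, a signal peptidase subunit, was at 38.9, 34.2 and 32.1 FPKM in the BCB-negative and at 49.0, 66.9 and 69.4 FPKM in the BCB-positive class, a log2 difference of 0.79 (pooled SD 0.21). SPCS1, another subunit, was lower by -0.68 (pooled SD 0.62), and by -0.17 without BCB-positive oocyte 3, where it was at 261 FPKM against 730.1 to 888 FPKM elsewhere. The catalytic subunits SEC11A and SEC11C averaged 806 and 731 FPKM, with overlapping classes. The list's median difference was -0.18, and ran from -0.38 when BCB-negative oocyte 3 was left out to -0.00 when BCB-positive oocyte 3 was. Among convertases PCSK5 averaged 22.5 FPKM and FURIN 1.70 FPKM, both named after their values were seen. FURIN did not overlap either, at 1.95, 2.10 and 2.18 FPKM in the BCB-negative and 1.89, 1.10 and 0.99 FPKM in the BCB-positive class. Its difference of -0.42 on the log2(FPKM + 1) scale, which understates low genes, fell short of the 1.5-fold limit.

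Zona proteins carry N-linked and O-linked glycans. Of 23 genes of N-glycan assembly and transfer, 22 were in the files and 20 were compared. Under the same 1.5-fold rule 1 was higher and 2 were lower, where 5.75% and 2.66% of all genes met it. The median difference was 0.17, which fell to 0.06 when BCB-positive oocyte 3 was left out, 0.07 when BCB-negative oocyte 2 was and 0.10 when BCB-positive oocyte 2 was, and was 0.30 when BCB-positive oocyte 1 was. ALG6, a glucosyltransferase of the lipid-linked precursor, was at 7.83, 13.99 and 7.47 FPKM in the BCB-negative and at 4.28, 2.98 and 4.95 FPKM in the BCB-positive class, a log2 difference of -1.05 (pooled SD 0.39). ALG3 was lower by -0.83, and by -0.39 without BCB-positive oocyte 3. ALG10 was higher by 0.71, with little room between BCB-negative oocyte 2 at 4.35 FPKM and BCB-positive oocyte 3 at 4.55 FPKM. Leaving out BCB-positive oocyte 1 brought ALG10 to 0.45, under the 1.5-fold limit. The most abundant members were KRTCAP2 at a mean of 545 FPKM, ALG14 at 414 FPKM and DAD1, a subunit of the oligosaccharyltransferase, at 136 FPKM. Of 34 Golgi genes for N-glycans and O-glycans, 30 were in the files and 21 were compared. By that rule 0 were higher and 1 lower, again beside 5.75% and 2.66% of all genes. Their median was 0.01, which ranged from -0.18 without BCB-positive oocyte 3 to 0.21 without BCB-positive oocyte 2. The lower gene was the galactosyltransferase B4GALT3, at 32.1, 40.5 and 44.2 FPKM in the BCB-negative and 23.5, 21.1 and 21.8 FPKM in the BCB-positive class, a difference of -0.78 (pooled SD 0.17). Its relative B4GALT4 went the other way without overlap, at 37.9, 31.7 and 36.6 FPKM in the BCB-negative and 42.7, 43.0 and 76.4 FPKM in the BCB-positive class. The B4GALT4 difference was 0.55 (pooled SD 0.35), under the 1.5-fold limit, and 0.27 without BCB-positive oocyte 3. By mean, B4GALT4 was at 44.7 FPKM and GALNT11, which starts O-glycans, at 28.5 FPKM.

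At fertilisation the protease ovastacin, encoded by ASTL, leaves the cortical granules and cuts ZP2. Of 14 genes of zona cleavage, cortical granules and sperm receptors, 13 were in the files and 11 were compared, with 0 in either direction at any size, where the share over all genes was 11.5%. The median was -0.22, with a range of -0.37 to 0.00 when each oocyte was left out in turn, and the end near 0 was reached without BCB-positive oocyte 3. The most abundant were LGALS3, which encodes galectin-3, at 1103 FPKM, PADI6, of the cytoplasmic lattices, at 810.3 FPKM and the chaperone CALR at 251 FPKM. Named after their values were seen, ASTL ran from 0.18 to 4.14 FPKM and IZUMO1R, the egg receptor for sperm IZUMO1, from 12.2 to 45.6 FPKM. The tetraspanin CD9, which is needed for gamete fusion in the mouse, was at most 0.27 FPKM.

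Other genes with a ZP module were low or not found, where they could be looked up. Of 13 such relatives, 4 had no entry in the name table used here, ZP1 among them, and were not analysed here. The 3 found in the files, ENG, TGFBR3 and UMODL1, reached at most 3.79 FPKM, and 1 of them, ENG, passed the mean of 1 FPKM, with overlapping classes. Its log2 difference was -0.36 (pooled SD 0.85), but 0.22 when BCB-negative oocyte 2 was left out and 0.01 when BCB-positive oocyte 2 was. Of 6 oocyte-secreted protein genes, 5 had no entry in the name table and 0 were found in the files. Of 17 other oocyte genes, 16 were in the files and compared. At least 1.5-fold apart with no overlap, 1 was higher, MAEL by 0.84, and 0 were lower, where 5.75% and 2.66% of all genes met the rule. The median was 0.02, with a range of -0.05 (without BCB-positive oocyte 3) to 0.16 (without BCB-positive oocyte 1), and was -0.02 when BCB-negative oocyte 2 was left out. The most abundant of these by mean were the importin KPNA7 at 8246 FPKM, the oocyte linker histone H1FOO (H1-8) at 3844 FPKM and the kinase MOS at 2555 FPKM, beside ZP4 at 5380.0 FPKM.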

How the data were processed

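Per the submitters' processing notes, BWA, Cufflinks, RSEM and the pig build Sscrofa10.2 were used; no role or version for them is given in the sources used here. Per the labels' protocols, cDNA of single oocytes was primed with poly(dT) of 24 nt, amplified by PCR and sequenced in a shared lane. The deposited tables give an expected count and an FPKM for each gene and transcript; FPKM was scaled by the authors to length and depth and rounded to 2 decimals, and expected counts in the deposited tables are not scaled to depth. A gene missing from a table was set to 0.

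Symbols came from a RefSeq table of Sscrofa11.1, used for names, neighbours and overlaps only, so no coordinates are given. The gene ID gave a match for 13936 of 19300 genes, and a transcript accession for 3 more. Genes that averaged 1 FPKM or more were compared by the difference of mean log2(FPKM + 1), which understates low genes, and the pooled SD within classes. Classes were called not overlapping where the lowest of 3 oocytes in a class exceeded the highest of the other 3. No p-value was computed. Python 3.11.15, numpy 2.4.6, pandas 2.3.3 and scipy 1.17.1 were used.

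The members and gene lists were chosen with earlier results of these data known. From each list, up to 3 members not overlapping and at least 1.5-fold apart and the 3 with the highest mean FPKM were named, with the 5 closest patterns to the mean zona level and the 3 closest to each gene. Promoter motifs were not analysed here. Alternatives were a pseudocount of 0.1 FPKM, size factors, a common sum, CPM, class mean ratios, ranks and shares by count, other filters and leaving out each oocyte.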

Additional observations from a re-analysis of the deposited data

How the results depend on the processing

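With all oocytes, the classes overlapped for each zona gene and for their sum as deposited and under size factors, a common sum and CPM. Without BCB-positive oocyte 1 they did not overlap for ZP3 and for the sum. Leaving out each oocyte in turn gave log2 differences of -0.17 to 0.32 for ZP2, -1.11 to -0.42 for ZP3, -0.19 to 0.14 for ZP4 and -0.69 to -0.22 for their sum. ZP3 lay between -0.79 and -0.59 under the pseudocount of 0.1 FPKM, size factors, a common sum, CPM and the ratio of class means. By expected count in place of FPKM, the median rank of ZP2 was 17.5 instead of 57 and that of ZP4 was 8 instead of 11, since counts favour longer transcripts. The number of genes that did not overlap and were at least 2-fold higher or lower in BCB-positive oocytes was 329 and 128. It was 169 and 57 with a mean of at least 5 FPKM, where fewer genes were tested, 258 and 159 under size factors, 428 and 98 with a common sum, and 360 to 861 and 237 to 321 with an oocyte left out, where fewer oocytes have to be ordered. Adding all counts of TMEM159 to ZP2, an alternative chosen after seeing the data, gave 0.0954 for ZP2 from counts scaled to depth and length. CPM of ZP2 alone also gave 0.0954, so the addition made no visible change. No paired analysis was possible because the oocyte numbers in the labels pair no oocytes across classes and no test was run.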

Other observations

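Among the 103 genes that averaged 1000 FPKM or more, ZP2 was 1 of 16 with their highest value in BCB-positive oocyte 3, a set noticed after the values were seen. These were 15.5% of the 103 genes, and 10.7% to 23.3% were highest in each other oocyte. Over all 11493 genes, 32.6% were highest in BCB-positive oocyte 3. The set of 16 also held BTG4, an adaptor of maternal mRNA decay, at a mean of 1794 FPKM, and the oocyte linker histone H1FOO at 3844 FPKM. Securin (PTTG1) at 1317 FPKM, CKS1B, a partner of cyclin-dependent kinases, at 1025 FPKM, and the elongation factor EEF1A1 at 1111 FPKM were in it too. Of these, BTG4 differed between classes by 0.36 on the log2 scale (pooled SD 0.37) and H1FOO by -0.01 (pooled SD 0.24), and the classes overlapped for both. For MCUB, also among the 16, they did not overlap, at 1311 to 1768 FPKM in BCB-negative and 1828 to 3017 FPKM in BCB-positive oocytes. The MCUB difference was 0.52 (pooled SD 0.31). Of all 11493 genes, 7.44% were higher in every BCB-positive oocyte.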
